A study of Drosophila melanogaster with 16 samples.

Results

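The 6 genes described here form the core of Drosophila Jun N-terminal kinase (JNK) signalling: the ligand *egr*, the kinases *hep* and *bsk*, the AP-1 factors *Jra* and *kay*, and the phosphatase *puc*. They were chosen by symbol from 13945 protein-coding genes annotated on the chromosome arms of BDGP6. For each gene, every significant peak of Psi, RNA Pol and Myc that overlapped the gene or lay within 1 kb of it was taken, and its place was measured from each annotated start site. A gene with such a peak is called bound. In all, 7 peaks met this rule. They lay at 5 of the 6 genes, and *Jra* had none.

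The peaks come from Targeted DamID (TaDa) in wing imaginal discs, the larval epithelial sacs from which the adult wings develop. The method couples a chromatin protein to Dam, an adenine methylase of bacteria, so that GATC sites close to where the protein contacts chromatin become methylated, and fragments released by DpnI at methylated sites are amplified and sequenced. Groups were Psi-Dam, Pol-Dam (Polr2F, also called RpII18, a subunit common to the RNA polymerases) and Myc-Dam, with 3 samples each, and Dam-only, with 7 samples. Psi is a KH-domain RNA- and DNA-binding protein and Myc a growth-promoting transcription factor. The Psi and Polr2F transgenes were inserted at attP2. All groups were female larvae that carried a UAS transgene under *sd*-GAL4 with ubiquitous temperature-sensitive GAL80, which directs methylation to cells in which the *sd* driver is active. Embryos were collected over 4 h or less at 25°C, GAL4 was held repressed during 7 days at 18°C, and 24 h at 29°C allowed expression of the fusions before dissection. Dam-only sample 1 was the control for Psi samples 1 and 3 and also for RNA Pol sample 1, so the Psi and RNA Pol lists are not independent, whereas the Myc samples had Dam-only samples 3 to 5 to themselves. The authors averaged the 3 samples of a fusion before calling peaks. A list therefore gives each peak once, with a score and a false discovery rate (FDR) but no spread between replicates. Only these averaged lists were analysed here, and they allow no test across samples.

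Across the series, the lists held 1710 Psi, 1568 RNA Pol and 1951 Myc peaks, with median widths of 1555, 1793 and 1401 bp and median scores of 1.84, 1.24 and 2.97. Scores rank peaks within their own list and are not comparable between lists. Read depth per sample is unknown from these files. Of 8 genes that mark the wing disc epithelium, 7 were bound in the Psi list, 6 in the RNA Pol list and 4 in the Myc list, and *wg* was bound in none. Of all protein-coding genes, Psi bound 7.92%, RNA Pol 13.6% and Myc 19.2%. All 5 haemocyte markers lacked peaks in every list, as did 74.3% of all protein-coding genes. Some markers of other cells of the disc were bound: for myoblasts 2 of 4 genes in each list, for trachea 2 of 3 in the Psi and RNA Pol lists and 1 in the Myc list, and for neurons none of 3 in the Psi list, 1 in the RNA Pol list and 2 in the Myc list. Most of these marker genes are long, with group medians between 13948 and 34320 bp, though *Him*, *NimC1* and *He* are short (1315, 3612 and 852 bp). Long genes meet peaks more often: of all genes of 10 kb or longer, Psi bound 27.8%, RNA Pol 32.3% and Myc 34.9%. The part of such cells in the peaks described below was not tested.

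JNK is a stress-activated MAP kinase. Eiger, the product of *egr*, is the fly tumour necrosis factor and binds the receptors Grindelwald and Wengen. Upstream kinases then activate Hemipterous (*hep*), which phosphorylates and activates the JNK Basket (*bsk*). Basket phosphorylates Jun (*Jra*), which pairs with Fos (*kay*) in the AP-1 complex, and AP-1 switches on *puc*, whose phosphatase inactivates Basket and so closes a negative feedback loop. In the wing disc the pathway is known for apoptosis, wound healing, regeneration, cell competition and the closure of the thorax.

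The letters TGANTCA, where N is any base, were taken as the AP-1 motif and searched in every peak of the 6 genes. The Psi peaks at *puc* and *kay* are the peaks where more than 1 match was found, so their matches are shown. The motif is its own reverse complement, so a match on either strand is counted once. All are given on the plus strand of BDGP6 with 20 bases on each side, and capitals mark the match. The matches at *puc* lie at chr3R:8116287-8116333, chr3R:8116508-8116554, chr3R:8116620-8116666 and chr3R:8117079-8117125, all within its last intron. Those at *kay* lie at chr3R:29763907-29763953 and chr3R:29764898-29764944, in the intergenic sequence upstream of the gene.
puc Psi peak, AP-1 match 1: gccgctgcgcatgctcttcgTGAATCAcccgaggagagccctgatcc
puc Psi peak, AP-1 match 2: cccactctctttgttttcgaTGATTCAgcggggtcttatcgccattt
puc Psi peak, AP-1 match 3: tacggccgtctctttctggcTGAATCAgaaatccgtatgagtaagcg
puc Psi peak, AP-1 match 4: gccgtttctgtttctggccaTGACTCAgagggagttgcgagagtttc
kay Psi peak, AP-1 match 1: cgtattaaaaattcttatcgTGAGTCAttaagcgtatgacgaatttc
kay Psi peak, AP-1 match 2: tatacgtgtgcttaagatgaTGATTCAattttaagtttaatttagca

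The 1053-bp Psi peak of *puc* thus held 4 matches, with C as the middle base in match 4 and A or T in the others. Among 127140 windows of that length tiled along the chromosome arms, 19.1% held at least 1 match and 0.033% held 4 or more. The 1502-bp Psi peak of *kay* held 2 matches, as did or exceeded 4.47% of windows of its length. The *puc* gene as a whole was rich in the motif, with 17 matches or 1.0 per kb, against 0.209 per kb over all arms, and most of its matches lay outside the peak. *Jra* had 0.963 matches per kb (2 matches in a short gene), *hep* 0.356 and *kay* 0.285, while *bsk* and *egr* had none. Another match stands close to the inner start of *puc*, that of transcript *puc*-RB, where no list has a peak. It begins 86 bases before the start and is marked by capitals in the 120 bases upstream of it (chr3R:8106368-8106487, plus strand). Of all protein-coding promoters, taken from 250 bases before to 50 bases after a start, 6.18% held TGANTCA.
puc-RB upstream: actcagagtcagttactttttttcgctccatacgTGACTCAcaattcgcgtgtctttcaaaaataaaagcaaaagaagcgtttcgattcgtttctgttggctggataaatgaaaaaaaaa

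The member peaks that ranked highest in their lists, RNA Pol and Myc at *hep*, covered the start of *hep* and that of its neighbour *lic*, which face away from each other, so the sequence before both starts is shown. Here the recurring letters were ATCGAT, the core of the DNA replication-related element (DRE) TATCGATA. These were chosen for a search after the peaks had been seen. Capitals mark ATCGAT in the 150 bases before the start of *hep* (chrX:13090435-13090584, given on the minus strand, in the direction of *hep*) and in the 150 bases before the start of *lic* (chrX:13090995-13091144, plus strand).
hep upstream: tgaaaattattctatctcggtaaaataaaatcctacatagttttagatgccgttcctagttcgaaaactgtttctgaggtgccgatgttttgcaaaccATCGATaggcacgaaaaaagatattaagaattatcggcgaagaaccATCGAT
lic upstream: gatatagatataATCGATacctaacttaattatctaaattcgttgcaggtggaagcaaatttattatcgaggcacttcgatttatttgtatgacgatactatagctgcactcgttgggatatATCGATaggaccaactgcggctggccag

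The 1582-bp peak over both starts held 6 ATCGAT cores, of which 3 fell in the promoter of *hep* (beginning at -52, -6 and +9) and 2 in that of *lic* (-138 and -28). Among 84625 windows of this length, 37.7% held at least 1 core and 0.0532% held 6 or more. These are windows from the whole genome, whereas the peak covers a pair of promoters, and 23.3% of all promoters held a core. The full TATCGATA stood once in the peak, 29 bases before the start of *lic*, and was held by 4.34% of windows and 9.36% of promoters. Neither TGANTCA nor CACGTG, the E-box that Myc binds with its partner Max, had a match there, although 27.1% and 17.2% of windows have them. A match in letters is a description and does not show that a factor bound, and its absence says only that these letters are not in the window.

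**Figure D1:**
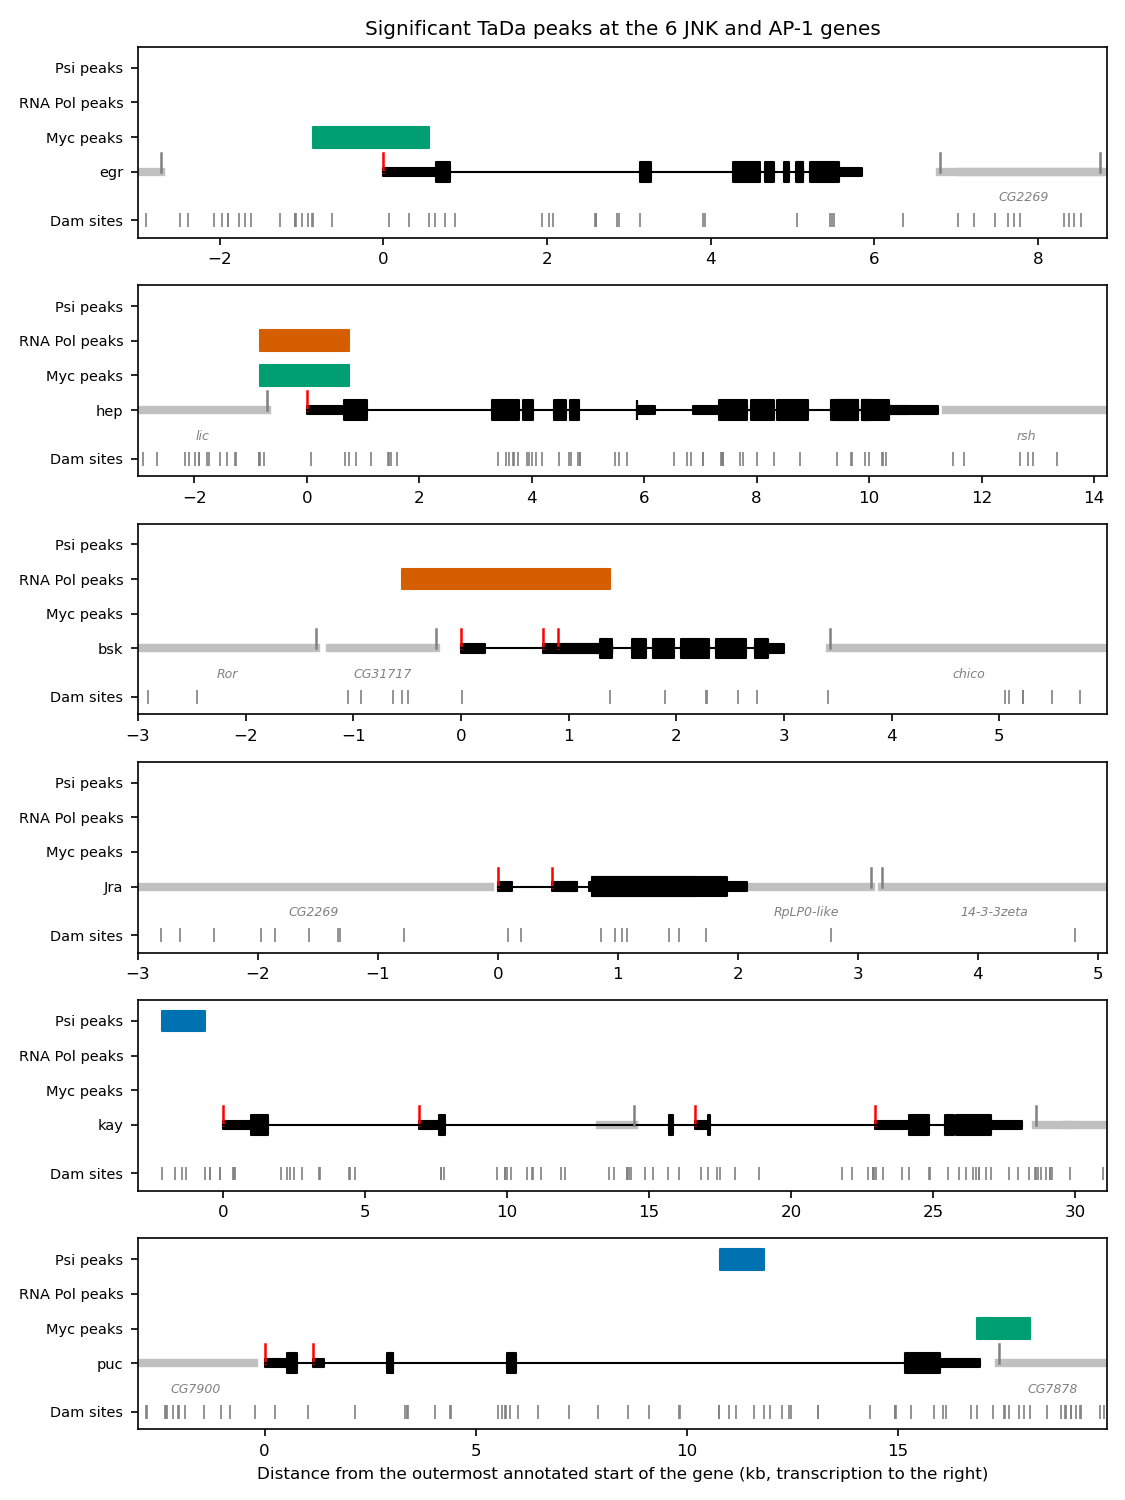
Peaks at the 6 genes, drawn to scale against distance from the outermost annotated start (kb, transcription to the right). Black boxes are exons (tall where coding), red ticks annotated starts, grey bars neighbouring protein-coding genes with grey ticks at their starts, coloured bars significant peaks (blue Psi, orange RNA Pol, green Myc) and the lowest row the GATC sites at which Dam can methylate. The *hep* and *bsk* starts sit inside RNA Pol peaks and the *hep* and *egr* starts inside Myc peaks. Both Psi peaks lie away from a start, and *Jra* has no peak.

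Psi bound 2 of the 6 genes (*puc* and *kay*), RNA Pol 2 (*bsk* and *hep*) and Myc 3 (*puc*, *hep* and *egr*). Over all protein-coding genes the shares were 7.92% for Psi, 13.6% for RNA Pol and 19.2% for Myc, and 74.3% had no peak in any list, as was the case for 1 of the 6. The 6 genes are longer than most (median 8537 bp, against 2166 bp for all), and longer genes were bound more often. Among genes of 10 kb or longer, where *puc*, *kay* and *hep* belong, 27.8% were bound by Psi, 32.3% by RNA Pol and 34.9% by Myc. For genes of 5 to 10 kb, such as *egr*, the shares were 11.1%, 21.4% and 27.1%, and for genes under 5 kb, such as *bsk* and *Jra*, 3.71%, 8.94% and 15.1%. With so few members, counts of 2, 2 and 3 are given as a description only.

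Of the members, *hep* and *puc* were each bound in more than a single list. The members are too few for the counts that follow to show less or more overlap of the lists than over all genes. No member was bound by both Psi and RNA Pol, against 4.93% of all genes. Myc was found with RNA Pol at *hep* alone (8.47% of all genes) and with Psi at *puc* alone (5.29%), and no member was bound in all lists (3.69%). At *puc* the Psi and Myc peaks lie 5.05 kb apart and do not overlap. At *hep*, by contrast, the RNA Pol and Myc peaks have the same first and last base.

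The peaks were then placed against the start sites. An annotated start fell inside an RNA Pol peak at 2 members (*bsk* and *hep*), inside a Myc peak at 2 (*hep* and *egr*) and inside a Psi peak at none, so that 3 of the 6 genes had a start inside a peak of some list. Over all protein-coding genes a start fell inside a peak for 7.92% (RNA Pol), 10.8% (Myc) and 2.35% (Psi), the lowest share being that of Psi here also.

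Among the ligands and receptors, *egr* (FBgn0033483) spans 5.84 kb of chromosome 2R (10078366 to 10084210, plus strand) and has a single start used by both of its transcripts. Its only peak was a Myc peak of 1417 bp, from 10077503 to 10078919, which reached from -0.863 to 0.553 kb relative to the start. Of this peak 39.1% lay in the noncoding part of the first exon and 60.9% outside any gene, so no neighbour shares it. Its score of 2.6 ranked 1240 of 1951, with 36.3% of Myc peaks below it, and its FDR of 0.00482 was in the weaker end of the list, since 80.8% of Myc peaks had a lower one. The peak held 1 CACGTG, 127 bases before the start of *egr*. An E-box stood in 15.6% of windows of this length and in 4.2% of promoters. The nearest Psi and RNA Pol peaks were 19.4 and 27.6 kb away.

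The kinases *hep* and *bsk* were the members bound by RNA Pol, each over its start. *hep* (FBgn0010303), the JNK kinase, spans 11.2 kb of the X chromosome (13079205 to 13090434, minus strand) with 7 transcripts from a shared start. Its RNA Pol peak scored 1.79, rank 75 of 1568, above 95.2% of that list, with an FDR of 0.000831. Its Myc peak scored 3.99, rank 255 of 1951, above 86.8% of that list, with an FDR of 0.000189. Both ran from 13089688 to 13091269, or from -0.835 to 0.746 kb relative to the start. Coding sequence of *hep* made up 5.63% of the interval, noncoding exon 41.6%, sequence outside genes 44.9% and the neighbouring gene *lic* 7.9%.

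*lic* encodes a kinase that activates p38, the MAP kinase of a parallel stress pathway, and its start lies 711 bp from that of *hep* on the opposite strand. Since the peaks cover both starts, contact at *hep* and at *lic* cannot be told apart at this resolution. Of 2326 pairs of genes that face away from each other with starts up to 1 kb apart, 9.8% had an RNA Pol peak over both starts, 13.5% a Myc peak, and 5.29% both. Identical bounds for RNA Pol and Myc occurred at 113 peaks, 7.21% of the RNA Pol list and 5.79% of the Myc list, while an overlap of any size was found for 50.3% of RNA Pol peaks and 39.6% of Myc peaks. Significant Psi peaks were far from *hep*, the nearest being 152 kb away. The median distance to a Psi peak was 35.0 kb over all protein-coding genes, and 9.77% of genes were as far from one as *hep*.

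*bsk* (FBgn0000229), the JNK itself, is a compact gene of 3.0 kb on chromosome 2L (10247502 to 10250501, minus strand) with 3 starts. Its RNA Pol peak of 1936 bp (10249117 to 10251052) took in all 3 starts, reached from -0.551 to 1.38 kb relative to the outermost one, and covered 46.2% of the gene. The score of 1.2 lay near the middle of the list (rank 852 of 1568, 44.9% of peaks below), but the FDR of 0.00683 was the highest in the list, shared with 6.89% of its peaks. Like the peak of *hep*, it took in a second start on the opposite strand, that of *CG31717*, 236 bp away. This gene held 16.3% of the peak. The interval had 4 ATCGAT cores, a number reached by 1.12% of windows of its length, and 1 TGANTCA, which lay in *CG31717*. No Psi or Myc peak was near enough to count. The closest Psi peak (score 1.65) was 4.7 kb from the 3′ end of *bsk* and overlapped the next gene, *chico*, and the closest Myc peak was 18.2 kb away.

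**Figure D2:**
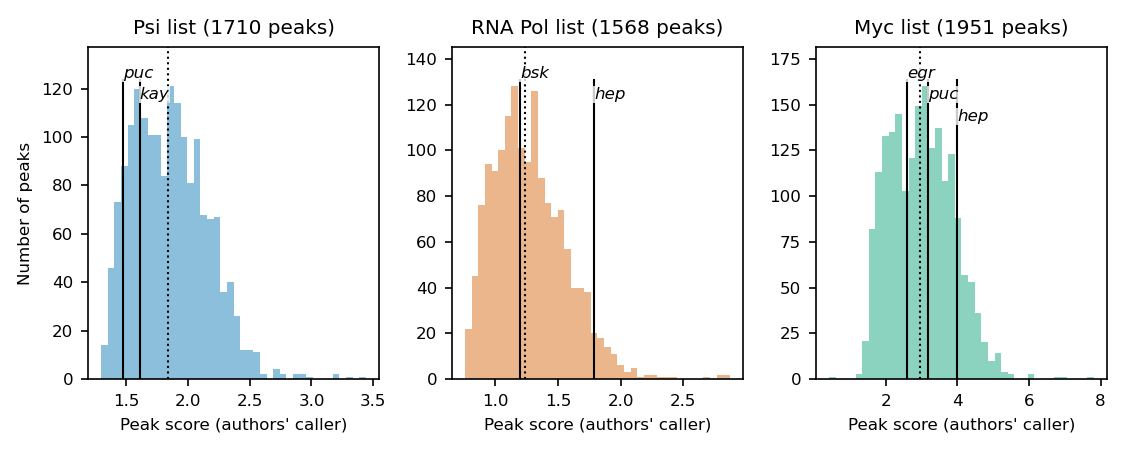
Scores of the 7 member peaks (black lines, named by gene) against all peaks of each list. The x axis is the peak score given by the authors' caller, the y axis the number of peaks, and the dotted line the median of the list. Both Psi peaks fall below the Psi median of 1.84, *hep* stands in the upper tail of the RNA Pol and Myc lists, and the *bsk*, *egr* and *puc* peaks lie nearer to the middle of theirs.

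Neither AP-1 gene had an RNA Pol or Myc peak. *Jra* (FBgn0001291), fly Jun, is a gene of 2.08 kb on chromosome 2R (10096480 to 10098556, plus strand) with starts at 10096480 and 10096928. The nearest peaks lay 35.9 kb (Psi), 25.2 kb (RNA Pol) and 17.6 kb (Myc) away, and the Myc peak in question was the one over *egr*, which lies 12270 bp from *Jra* on the same arm. Median distances over all protein-coding genes were 35.0, 22.3 and 13.9 kb, so *Jra* was about as far from a peak of each list as a typical gene. Dam could methylate 9 GATC sites within *Jra*, or 4.33 per kb, against 2.79 per kb over all arms. Its inner promoter had a TGANTCA at -71 and a TATCGATA at -26.

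*kay* (FBgn0001297), fly Fos, spans 28.1 kb of chromosome 3R (29765995 to 29794113, plus strand) and uses 4 starts, at 29765995 (*kay*-RD), 29772892 (*kay*-RA and *kay*-RG), 29782609 (*kay*-RB) and 29788936 (*kay*-RF). Its Psi peak of 1502 bp ran from 29763840 to 29765341 and lay wholly outside genes, with its near edge 654 bp upstream of the first start. Seen from the starts further in, the same peak was 7.55, 17.3 and 23.6 kb upstream. It was the member peak nearest to the 1 kb limit from inside, just as the Psi peak at 4.7 kb from *bsk* was the nearest from outside. The score of 1.61 ranked 1285 of 1710, above 24.3% of Psi peaks, with an FDR of 0.00341 (82.6% of the list had a lower one).

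Significant RNA Pol peaks were distant from *kay* in both directions. Signal below the peak limit was not analysed, so the lack of a peak does not show that polymerase was absent. The nearest peaks of that list lay 246 kb upstream and 298 kb downstream, a gap of 572 kb that was the 13th widest of 1562 between neighbouring RNA Pol peaks of an arm, and 1.63% of protein-coding genes were as far from an RNA Pol peak. The nearest Myc peak was 24.7 kb away. GATC sites were present at 2.35 per kb in *kay*, 66 in all, with the longest stretch free of them measuring 3035 bp.

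*puc* (FBgn0243512), the phosphatase that restrains Basket, spans 17.0 kb of chromosome 3R (8105332 to 8122294, plus strand) with starts at 8105332 (*puc*-RA) and 8106488 (*puc*-RB). Its Psi peak of 1053 bp (8116112 to 8117164) lay entirely within the last intron, 10.8 kb after the first start and 9.62 kb after the second. It was a weak peak of the list, with a score of 1.48 (rank 1556 of 1710, 8.77% of peaks below) and an FDR of 0.00341. Upstream, the closest peak was a Myc peak 10.8 kb before the first start, so no list had a peak nearer than 9.62 kb to either start. The nearest RNA Pol peak was 17.1 kb beyond the 3′ end.

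The Myc peak assigned to *puc* lay at the other end of the gene. It scored 3.19 (rank 786 of 1951, above 59.6% of the list) with an FDR of 8.15e-06, the lowest of the 7 member peaks, and ran from 8122217 to 8123460. Only 78 bp of it, 6.27%, fell within *puc*, in the 3′ noncoding exon. *CG7878*, the next gene on the same strand, held 59.2% of the peak, including the start at 8122725. The peak had 3 ATCGAT cores, a number reached by 1.66% of windows of its length, and 2 E-boxes, a number reached by 1.27%. The E-boxes lie in *CG7878*, at chr3R:8122787-8122814 and chr3R:8122954-8122981 (plus strand, 11 bases on each side). They are shown to place them on the neighbour's side of the peak, with capitals for CACGTG.
puc Myc peak, E-box 1: atcagcgttttCACGTGtgctgttgttt
puc Myc peak, E-box 2: agatggtaactCACGTGcatacaaagga

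**Figure D3:**
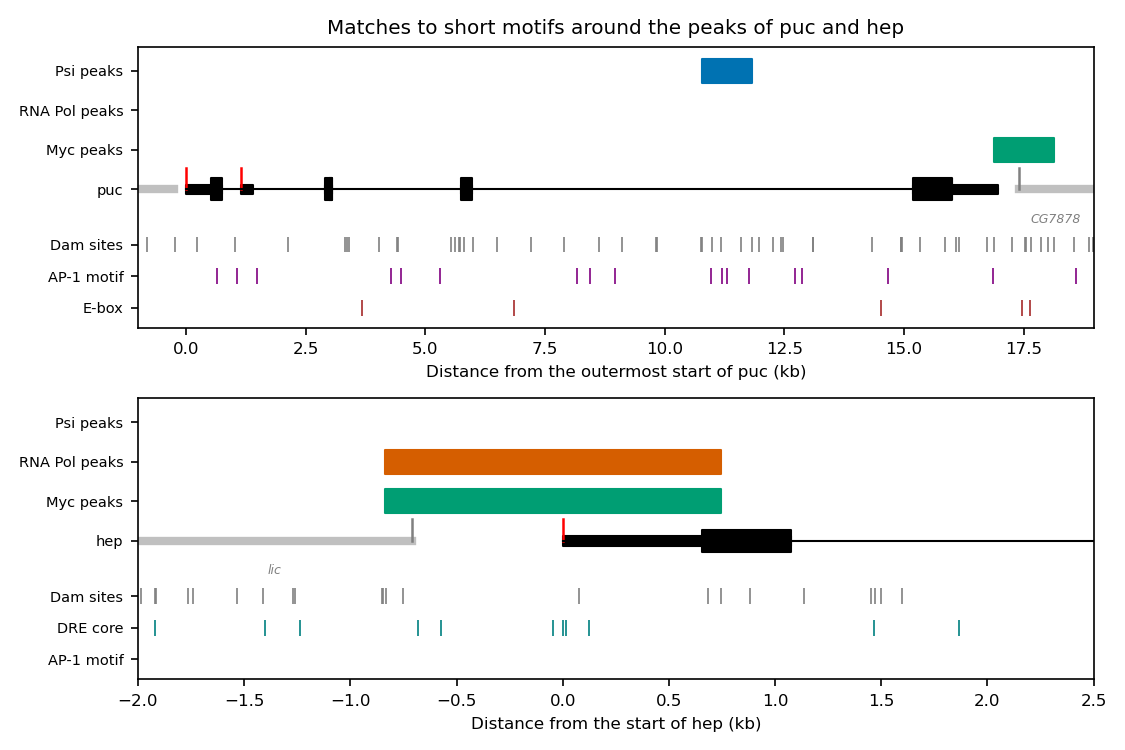
Short motif matches (ticks) around the peaks of *puc* (upper panel, AP-1 motif in purple and E-box in brown) and of *hep* (lower panel, DRE core in teal), with distance from the start of the gene in kb. Peaks, exons and starts are drawn as in the maps of the 6 genes. At *puc* 4 of the AP-1 motifs fall within the Psi peak and both E-boxes of the Myc peak lie past the start of the neighbour, and at *hep* 6 DRE cores fall within the peak shared by RNA Pol and Myc, which holds no AP-1 motif.

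Of the 7 peaks, 4 thus also took in the start of a neighbouring gene (RNA Pol at *bsk*, RNA Pol and Myc at *hep*, Myc at *puc*), and 3 did not (Psi at *puc*, Psi at *kay*, Myc at *egr*). The genes with score patterns most like those of the members were sought by rule among genes bound in the same lists, as the smallest distance between score percentiles. For *hep*, among 665 genes bound by RNA Pol and Myc, these were *lic*, through the same peak, and *bip1* (RNA Pol 1.77, Myc 4.02). For *puc*, among 221 genes bound by Psi and Myc, they were *Ctps* and *GlyRS*, tied at scores of 1.49 for Psi and 3.27 for Myc. The other members were bound in a single list and had ties at identical scores, of 6 genes for *bsk* (*CG31717* and *GCC185* among them), of 4 for *kay* (*CG1943* and *CG6094*) and of 5 for *egr* (*Atg3* and *CG11050*).

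Around the 6 genes, 40 further genes of the JNK network were examined, from receptors to known targets. Psi bound 12 of them (30.0%), RNA Pol 14 (35.0%) and Myc 15 (37.5%). Of the 40, 6 were bound in every list and 20 in none, against 3.69% and 74.3% of all protein-coding genes. The bound shares of the Psi, RNA Pol and Myc lists were above those of all protein-coding genes (7.92%, 13.6% and 19.2%). The network genes were also longer (median 5468 bp against 2166 bp). Within length classes, 8 of the 13 network genes of 10 kb or longer were bound by Psi (61.5%, against 27.8% of all such genes), 9 by RNA Pol (69.2% against 32.3%) and 9 by Myc (69.2% against 34.9%). Of the 20 under 5 kb, Psi bound 2 (10%, against 3.71% of all such genes), RNA Pol 3 (15.0%, against 8.94%) and Myc 5 (25.0%, against 15.1%). Of the 7 from 5 to 10 kb, Psi bound 2 (28.6%, against 11.1% of all such genes) and RNA Pol 2 (28.6%, against 21.4%). Myc bound 1, and its share, 14.3%, was below the 27.1% of all genes of that class. No test was made of these differences. The network list was chosen with earlier results of these data known, so its shares are a description only. Gene lengths were not matched within a class.

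**Figure D4:**
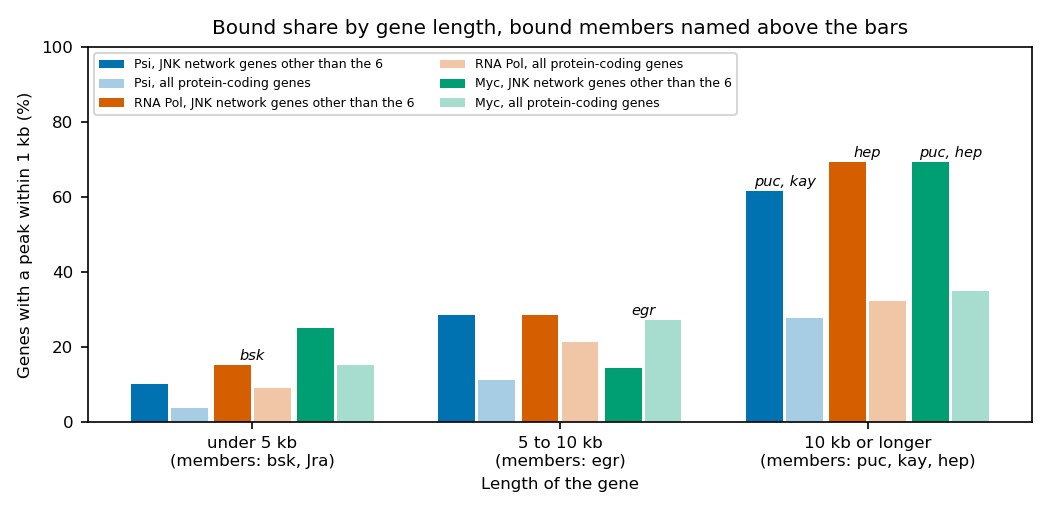
Share of genes with a peak within 1 kb (%, y axis) by gene length (x axis) and list. Full colours are the JNK network genes other than the 6, pale colours all protein-coding genes, and the names above the bars are the bound members of that class. The network genes were chosen with earlier results of these data known. In each list the share is highest for genes of 10 kb or longer, and the full bar is taller than the pale bar in every class except for Myc at 5 to 10 kb (14.3% against 27.1%).

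Both Eiger receptors were bound by RNA Pol and Myc together, against 8.47% of all protein-coding genes. For *grnd* the RNA Pol and Myc peaks again had identical bounds over the start, with scores of 1.32 and 1.86, the second of them low in the Myc list (10.2% below). For *wgn*, Psi was present as well, in 3 peaks inside the gene, of which the highest scored 1.96, while RNA Pol reached 1.3 and Myc 3.25, none over a start. Among 10 adaptors and upstream kinases, RNA Pol and Myc bound the same 5 genes, namely *Mekk1* and *wnd* (MAP kinase kinase kinases), *Tab2* and *Traf4* (adaptors) and *msn* (a Ste20-type kinase). Over all protein-coding genes, Psi bound 7.92%, RNA Pol 13.6% and Myc 19.2%. The 10 genes are long (median 9755 bp), and 50.3% of all RNA Pol peaks overlapped a Myc peak. RNA Pol scored highest at *Tab2* (1.49), and Myc at *msn* (4.06, rank 215 of 1951) and *Tab2* (3.55). The RNA Pol peak of *msn* (1.07) lay 45 bp outside the gene at the end away from the Myc peak. Psi bound *Traf4* (2.04) and *Mekk1* (1.63) of these. *Tak1*, *slpr*, *Ask1*, *Mkk4* and *Traf6* had no peak in any list.

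Of 5 small GTPases and 5 regulators of the pathway, 2 each had a peak in some list, while 74.3% of all protein-coding genes had none. *Rho1* had Psi (1.58) and RNA Pol (1.04) peaks and *Cdc42* a Myc peak 693 bp away (3.44), whereas *Rac1*, *Rac2* and *Mtl* had none. Of 5 regulators, the scaffold gene *POSH* (3.75) and the deubiquitinase gene *CYLD* (3.62, at 945 bp) were bound by Myc alone. Among transcription factors that act with AP-1 or beside it, the bZIP gene *Xrp1* was bound in every list over an annotated start (Psi 2.27, rank 147 of 1710, RNA Pol 1.34, Myc 3.35), *Atf3* by Psi (1.96) and Myc (1.75), and the ETS gene *Ets21C* by RNA Pol (0.84). *Atf-2* and *Irbp18* had no peak.

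Of 13 known targets and effectors, Psi bound 6 (46.2%, against 7.92% of all protein-coding genes), RNA Pol 4 (30.8%, against 13.6%) and Myc 3 (23.1%, against 19.2%). Their median length was 7364 bp, against 2166 bp for all. The highest Psi score of the network stood here. *hid*, a promoter of apoptosis, had 3 Psi peaks, the highest at 2.47 (rank 41 of 1710, above 97.5% of the list). It also had 2 RNA Pol peaks, the higher at 1.39. The cytokine gene *upd3* had a Psi peak of 2.26 at 315 bp, though its FDR of 0.00341 was that of the *puc* and *kay* Psi peaks. *zip*, the non-muscle myosin heavy chain, had Psi and RNA Pol peaks of 2.1 and 1.38. The profilin gene *chic* was bound in every list, with 3 Psi peaks (2 overlapping the gene, and the highest, 2.04, at 869 bp from it) and top scores of 1.06 for RNA Pol and 3.51 for Myc. *Ilp8*, a relaxin-like hormone gene of damaged discs, was also bound in every list (Myc 3.47), although its Psi (1.31) and RNA Pol (0.8, at 904 bp) peaks were among the lowest of their lists. The matrix metalloprotease gene *Mmp1* was bound by Psi (1.56) and Myc (3.39). The 7 targets without a peak were *Timp*, *upd1*, *upd2*, *rpr*, *scaf*, *NLaz* and *Thor*. Of the 12 network genes bound by Psi, 11 had a higher top score than *puc* (1.48), the exception being *Ilp8*. For *kay* (1.61), 9 were higher and 3 lower (*Ilp8*, *Mmp1* and *Rho1*).

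**Figure D5:**
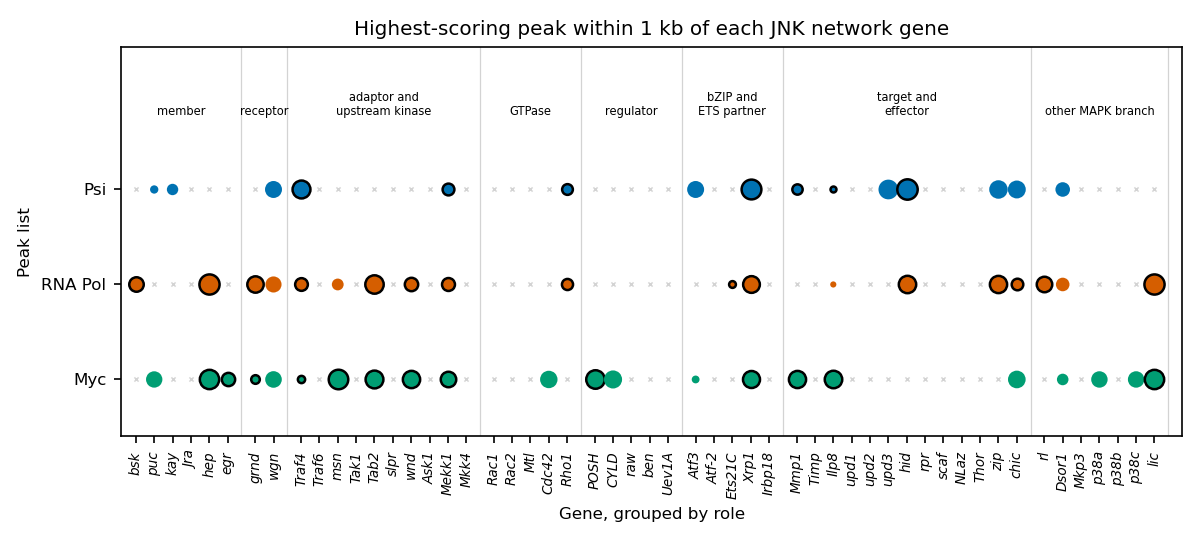
Highest-scoring peak within 1 kb of each JNK network gene (x axis, grouped by role) in the Psi, RNA Pol and Myc lists (rows). Disc area grows with the percentile of the score within its list, a black ring means that an annotated start lies inside a peak, and a grey cross means no peak. The Psi row has small discs for *puc* and *kay* and its largest for *hid*, and the RNA Pol and Myc rows are filled for the same 5 of the adaptors and upstream kinases.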

How the data were processed

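Peak lists for Psi, RNA Pol and Myc were analysed as deposited. Samples were grouped by their titles. A description label that reads as RNAi or control conflicts with the titles and the series design and was not used. The authors aligned reads to BDGP6 with Bowtie2 in damidseq_pipeline, computed the normalised log2 ratio of fusion to Dam-only at GATC fragments, took the mean of 3 replicates and ran find_peaks on it, keeping peaks at an FDR of 1%. For the versions of these tools, nothing is given in the sources used here. Score and FDR of each peak were deposited by the authors, and how the score was computed was left unstated. Only these averaged lists were analysed, so no SD, replicate test or depth is given. Signal tracks and reads were not analysed here.

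Gene models came from Ensembl release 115 (BDGP6 version 54), and sequence from the RefSeq genome of the same assembly. Motifs were the AP-1 site, the E-box, the Dam site, the DRE and its core, each its own reverse complement, and matches to the core include those inside the full DRE. Windows were non-overlapping tiles of the arms. Calculations used Python 3.11.15, numpy 2.4.6 and pandas 2.3.3, and figures matplotlib 3.10.9. The 1 kb distance rule was checked with simulated peaks planted at set distances past the right-hand end of real genes. This check covers the distance arithmetic only. Genes named were the 6 members, genes overlapped by their peaks, up to 4 top-scoring bound genes per role and list, the 2 genes most alike to each bound member and marker genes. Unbound genes of a role, *Traf4* and *Atf3* in the Myc list, and the neighbour *chico* were named after their values were seen. Members and lists were chosen with earlier results of these data known. Alternatives were a peak overlapping the gene, 2 kb, an FDR of 0.1%, merging peaks under 500 bp apart, the outermost start, a start within 500 bp, a 50% overlap and, chosen after seeing the data, RefSeq gene spans, leaving out network genes whose peaks lie only on another gene, and the DRE letters.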

Additional observations from a re-analysis of the deposited data

How the results depend on the processing

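Of 38 alternative counts, 31 stayed within 1.5 times the reported count. Some of the 31 could not have moved. The Psi start count of 0 cannot fall at a stricter FDR, and the 50% overlap was fixed by the identical bounds at *hep*. Myc at an FDR of 0.1% fell from 3 to 2 members, which lies at the limit of 1.5 times. Requiring a peak to overlap the gene left 1 member bound by Psi (*puc*), since the peak of *kay* lies outside it. At an FDR of 0.1%, Psi bound 0 members and RNA Pol 1 (*hep*), and 8 of the 40 network genes were bound by RNA Pol. A start lay inside a peak at 1 member for RNA Pol, 1 for Myc and 1 over all lists (*hep* in each). That limit keeps 71.6% of Psi, 64.0% of RNA Pol and 62.4% of Myc peaks. Both Psi peaks of the members had an FDR of 0.00341, and 82.6% of the Psi list had a lower one. At that limit *hep* kept both of its peaks, *puc* kept its Myc peak, and the peaks of *bsk*, *kay* and *egr* and the Psi peak of *puc* were lost. The RefSeq spans of the 6 genes are identical to those used, so that alternative could not change the counts of bound members. No paired analysis was possible because the files analysed here are lists called on the average of the 3 replicates of a fusion, and leaving out a replicate was not run for the same reason. Peak bounds are GATC sites, so a peak resolves contacts only to the fragments between them, and assignment within 1 kb can give a peak to more than 1 gene.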

Other observations

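Outside JNK signalling proper, the other MAP kinase branches met peaks at 5 of 7 genes, with 1 bound by Psi (14.3%, against 7.92% of all protein-coding genes), 3 by RNA Pol (42.9%, against 13.6%) and 4 by Myc (57.1%, against 19.2%), and 2 in no list (74.3% of all genes had none). Several of these peaks are shared, so the 7 genes are not separate observations, and no test was made. Besides *lic*, whose values are those of the peaks shared with *hep*, *rl*, the fly ERK, had an RNA Pol peak of 1.26 over a start and no Psi or Myc peak. *Dsor1*, the kinase that activates ERK, had peaks in all lists (Psi 1.8, RNA Pol 1.15, Myc 2.27), of which the Psi and Myc peaks had the same bounds and lay 485 bp outside the gene. The neighbouring *p38a* and *p38c* were both within 1 kb of a Myc peak of 3.21, which lay inside *p38c* and 596 bp from *p38a*. *Mkp3* and *p38b* had no peak.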
